A study of Boehmeria nivea with 18 samples.

Results

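Circular RNAs (circRNAs) that were listed in 1 section of the ramie stem and in no library of the other were taken from the circRNA table of stem bark. The members were chosen by their measured values. A circRNA was kept when it had a value above 0 in at least 2 of the 3 libraries of 1 section and a value of 0 in all 3 libraries of the other section. By this rule, 350 of the 5268 circRNAs in the table were members, of which 319 were listed in bark of the middle stem section (MPS) only and 31 in bark of the top stem section (TPS) only. The bark came from ramie (Boehmeria nivea) of the cultivar Zhongzhu 1, an elite fiber cultivar. In MPS the fibers were thickening their secondary walls, and in TPS this wall growth had not started. Each section had 3 circRNA libraries, numbered 1 to 3. The labels state that the bark was taken from 5 individuals aged 40 days, and the study's methods give a younger age and describe mixed stem sections and biological replicates. Whether each replicate came from other plants is not stated in these sources.

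A circRNA is made when the spliceosome joins the end of an exon back to the start of the same or an earlier exon of one transcript, so that the RNA forms a closed ring. Without free ends such rings resist the exonucleases that degrade linear RNA, and many are more stable than the mRNA of their gene. A circRNA is recognized by reads across its back-splice junction, and its ID is the pair of positions that the junction joins. In plants, exonic, intronic and intergenic rings have been described, and the functions of most are not known. Here each circRNA is named by its scaffold, start and end in the ramie assembly, as in scaffold16:700639-701475, and its span is the distance from start to end including introns. The table gives no host gene and no strand, so that no gene name and no sequence could be given for any member.

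The libraries differed widely in how many circRNAs they listed, before any comparison of the sections. TPS replicate 1 listed 60 circRNAs, TPS replicate 2 listed 544 and TPS replicate 3 listed 1489. MPS replicates 1, 2 and 3 listed 1108, 1847 and 1861. The difference between the sections was within the spread of the libraries (mean ± SD of 697.7 ± 726.8 for TPS and 1605 ± 430.8 for MPS, n = 3 each, p = 0.2 by a two-sided exact permutation test and 0.2667 after adjustment over 4 measures per library). The summed values differed less, with 68593, 241831 and 312091 in TPS and 191315, 258833 and 264968 in MPS (exact permutation test, p = 0.8). TPS replicates 1 and 2 thus placed their signal on fewer circRNAs, and the 10 highest took 48.6%, 37.6% and 37.0% of the sum in the TPS libraries against 20.6%, 16.2% and 10.5% in the MPS libraries. List length and summed values come from the values that the rule used and include the members. Their p-values describe the libraries and are no test of the members. Within a library, the values fell on whole multiples of 1 step, which was 22.1 to 22.8 in TPS and 19.1 to 19.9 in MPS. The smallest listed value was 2 steps in 5 libraries and 4 steps in TPS replicate 1, which was a value of 91 in TPS replicate 1, 44 in the other TPS libraries and 38 to 40 in MPS. In the separate transcriptome libraries, matched by section and replicate number, TPS replicate 1 did not list fewer transcripts (34737, against 33114 to 34286 in the other 5 libraries). These are counts of entries with no limit on FPKM, and they do not measure the yield of the circRNA libraries. Counted in steps, the summed values were 3010 in TPS replicate 1 and 10016 to 14095 in the other 5 libraries. The part of library yield in the length of the lists was not tested. Since these are bulk samples of bark, fewer cells that make a circRNA and less circRNA per cell cannot be told apart either.

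**Figure D1:**
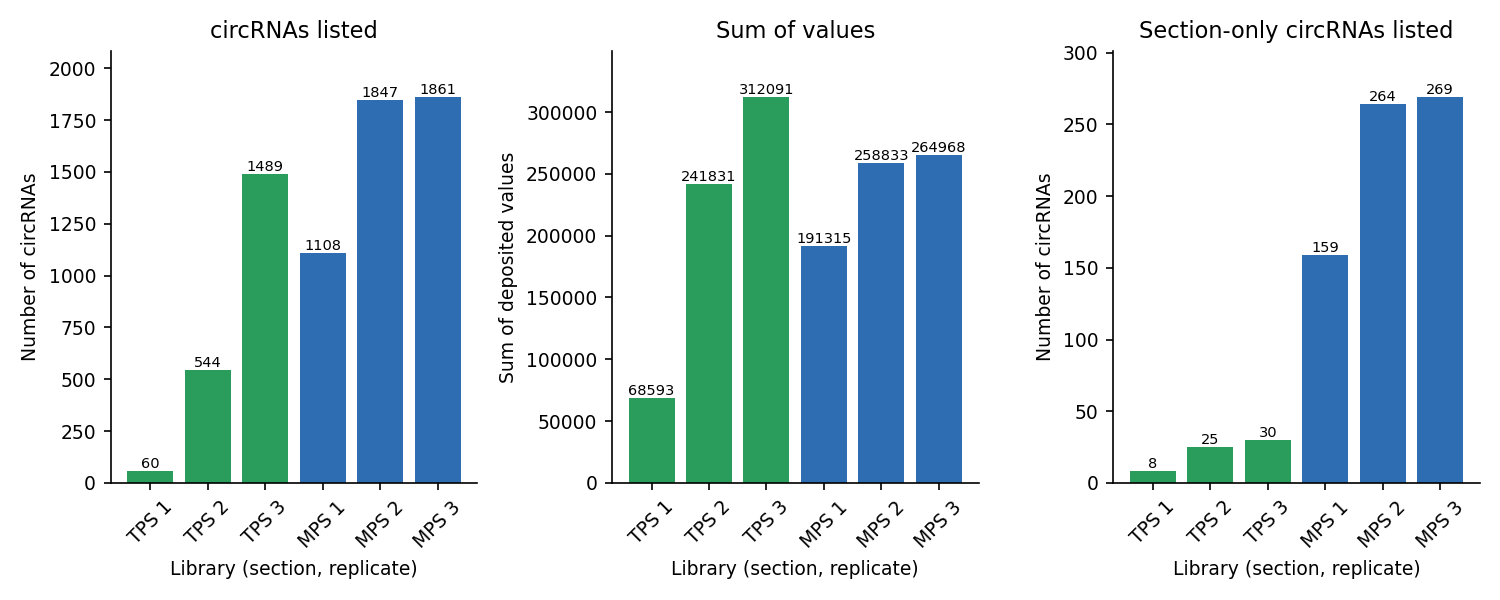
Number of circRNAs listed (left), sum of the deposited values (middle) and number of section-only circRNAs listed (right) in each circRNA library, with TPS in green and MPS in blue and 1 bar per library. TPS replicate 1 lists 60 circRNAs, and MPS replicates 2 and 3 list most, 1847 and 1861.

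The section labels were compared with marker genes in the transcriptome libraries, in FPKM. The names come from lists that the study chose on the same samples, so that their direction is not independent evidence. Of 7 genes of the secondary wall, 3 were higher in every MPS library than in any TPS library, 1 was higher in TPS and 3 overlapped. Those 3 higher in MPS included both laccases, which were near 0. Laccase A (BntWG10014338) was at 0 in TPS and 0.01 to 0.16 FPKM in MPS. Laccase B (BntWG10014339) was at 0.01 to 0.06 FPKM in TPS and 0.07 to 1.87 FPKM in MPS. The gene higher in TPS was IRX15L (BntWG10008444), at 28.2 to 35.9 FPKM in TPS and 4.87 to 7.59 FPKM in MPS. CESA7 (BntWG10007243), a catalytic subunit of the cellulose synthase of secondary walls, was at 50.9, 10.5 and 10.8 FPKM in TPS replicates 1, 2 and 3 and at 46.4, 151 and 162 FPKM in MPS. The ortholog of IRX1 (BntWG10024039) was at 51.1, 14.9 and 12.15 FPKM in TPS and 42.7, 190 and 215 FPKM in MPS. FLA12 (BntWG10001406) was at 12.8, 4.56 and 1.45 FPKM in TPS and 10.5, 39.2 and 42.2 FPKM in MPS. In these 3 overlapping genes TPS replicate 1 was above MPS replicate 1, while replicates 2 and 3 parted. The summed level of the 7 genes also overlapped, at 58.8 to 145 FPKM in TPS and 112 to 429 FPKM in MPS. The ortholog of MYB46 and MYB83 (BntWG10013420), the switches of secondary wall synthesis in Arabidopsis, was at 0.230 to 0.580 FPKM in TPS and 1.46 to 3.08 FPKM in MPS. The summed level of 3 cyclin genes was 1.20 to 2.85 FPKM in TPS and 0.210 to 0.260 FPKM in MPS, with 2 of the 3 higher in TPS and 1 overlapping. All 3 were low, with CYCD1-1 at 0.41 to 2.42, CYCD6-1 at 0 to 0.14 and CYCH1-1 at 0.42 to 0.65 FPKM in TPS. Whether they mark dividing cells here was not tested. The summed level of 4 genes of green cells was 3.88 to 6.09 FPKM in TPS and 0.620 to 2.33 FPKM in MPS. This sum was mostly CAB25 (BntWG10000221), the one gene of the 4 that was higher in TPS. The other 3 overlapped, and LHCB7 and rubisco activase A were listed at 0 in every TPS library. The level of the sieve element gene SEOB (BntWG10001436) was 0.0200 to 0.210 FPKM in TPS and 0.490 to 2.73 FPKM in MPS. The part of these differences in the circRNA lists was not tested.

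The 319 circRNAs listed in MPS only made up 6.06% of all circRNAs in the table and 32.4% of the 986 circRNAs that were listed in at least 2 libraries. The 31 listed in TPS only were 0.588% of all circRNAs and 3.14% of those in at least 2 libraries. Since the rule itself defined these counts, they are given as a description with no test. Another 636 circRNAs were listed in both sections, 3023 in 1 MPS library alone and 1259 in 1 TPS library alone. Of the MPS members, 54 were listed in all 3 MPS libraries and 265 in 2. Replicates 2 and 3 shared 160 of those 265, replicates 1 and 3 shared 55, and replicates 1 and 2 shared 50. Of the TPS members, 1 was listed in all 3 TPS libraries, 23 in replicates 2 and 3, 6 in replicates 1 and 3, and 1 in replicates 1 and 2. The sparse TPS replicate 1 therefore held 8 of the 31 TPS members, while MPS replicate 1 held 159 of the 319 MPS members.

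The counts followed the libraries that entered them. Without TPS replicate 1, the rule gave 321 MPS members and 24 TPS members. Without TPS replicate 3, which lists most circRNAs in that section, it gave 517 MPS members and 2 TPS members, and without TPS replicate 2 it gave 354 and 7. Leaving out an MPS library lowered the count of MPS members, to 214 without replicate 1, 109 without replicate 2 and 104 without replicate 3, and gave 32, 39 and 49 TPS members. A section left with 2 libraries needed a listing in both, while the other section still needed 2 of 3. In each of these 6 settings the MPS members outnumbered the TPS members. This order comes from the listing that chose the members and is no test of it. The MPS lists were also longer on average, and the part of list length in the order was not tested. With the same floor of 91 for every library, set by the smallest value in TPS replicate 1, 137 MPS members and 15 TPS members were found.

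Most circRNAs of a library were not listed in any one other library. Of the circRNAs of TPS replicate 2, 141 (25.9%) were also listed in TPS replicate 3, 142 (26.1%) in MPS replicate 2 and 154 (28.3%) in MPS replicate 3. TPS replicate 2 thus had as many in common with each of these 2 larger MPS lists as with TPS replicate 3. It shared fewer with MPS replicate 1 (93, 17.1%) and with the sparse TPS replicate 1 (16). As a percent of the other list, the shared circRNAs were 9.47% of TPS replicate 3 and 8.39%, 7.69% and 8.28% of MPS replicates 1, 2 and 3. Of the circRNAs of TPS replicate 3, 15.1% were listed in MPS replicate 1, 24.5% in MPS replicate 2 and 25.1% in MPS replicate 3. MPS replicate 2 shared 25.6% of its circRNAs with MPS replicate 3 and 14.7% with MPS replicate 1 of its own section, beside 19.8% with TPS replicate 3. MPS replicates 2 and 3 alone, with no other library, shared 160 circRNAs, which are members, and MPS replicate 2 and TPS replicate 3 alone shared 97, which are not. In every library, between 48.3% and 63.2% of the listed circRNAs were found in no other library. This percentage comes from the same listing that chose the members and is given as a description.

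Among the circRNAs listed in all 3 MPS libraries, whether a circRNA was also listed in TPS went with its level in MPS. These 189 circRNAs were divided into 3 equal groups by their mean value in MPS, and since the members were selected on these values no test was made. In the lowest group, with means of 45.7 to 176, 40 of 63 were listed in no TPS library, and TPS replicate 3 listed 22. In the middle group, with means of 176 to 371, 14 of 63 were MPS members, and TPS replicate 3 listed 44. In the highest group, with means of 377 to 4929, there was no MPS member, and TPS replicate 3 listed 61 of 63. TPS replicate 2 listed 8, 17 and 34 of the 3 groups and TPS replicate 1 listed 2, 2 and 3. The same held on the TPS side. Of the 141 circRNAs listed in both TPS replicate 2 and TPS replicate 3, 17 of 47 in the lowest group by mean value were listed in no MPS library, 4 of 47 in the middle group and 3 of 47 in the highest group. The members with the most libraries were thus found among circRNAs of low and middle level.

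**Figure D2:**
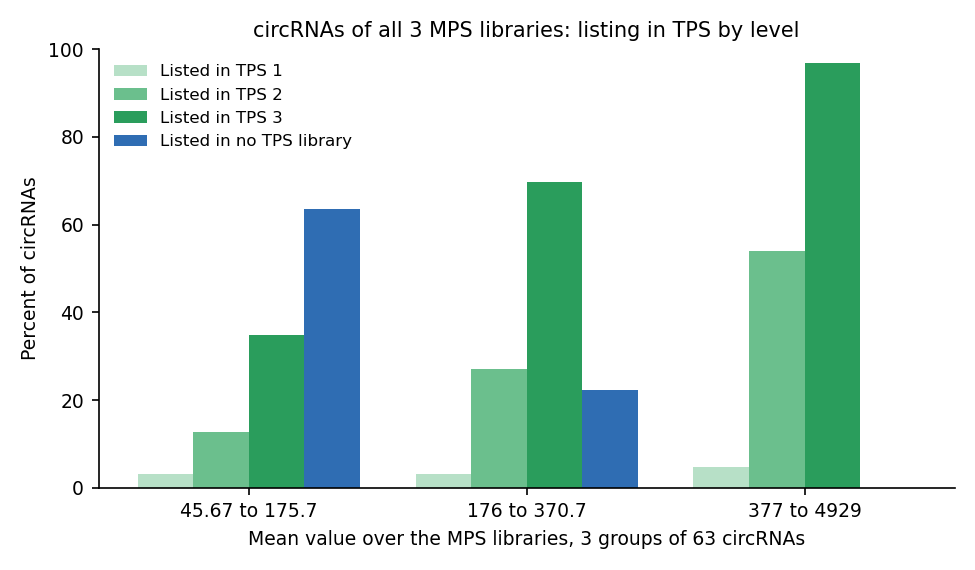
Percent of circRNAs that were listed in each TPS library (green) or in none (blue), for the 189 circRNAs listed in all 3 MPS libraries, in 3 groups of 63 by their mean value over MPS (x axis). From the lowest to the highest group, the percent listed in TPS replicate 3 goes from 34.9% to 69.8% and 96.8%, and the percent listed in no TPS library from 63.5% to 22.2% and 0.

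Most members had low values, as did the circRNAs of the table as a whole. Over the 692 listed values of MPS members, the median was 79 and the range 38 to 3402, and 25.0% were at the smallest value of 2 steps. Over all circRNAs, the median listed value was 76, 59 and 79 in MPS replicates 1, 2 and 3, and 23.3%, 39.5% and 34.6% of the values were at 2 steps. For 23 of the 319 MPS members, every listed value was at 2 steps. In 217 of them the highest value reached 91, the smallest value that TPS replicate 1 lists, and in 106 it reached 10 steps. The mean over the 3 MPS libraries, with 0 where a library did not list the circRNA, was 25.7 to 1258 with a median of 65.7. The 63 listed values of TPS members were 44 to 3611 with a median of 133, and the mean over the 3 TPS libraries was 29.3 to 1836 with a median of 105. In 27 of the 31 the highest value reached 91. MPS members took 11.7%, 11.3% and 13.5% of the summed values of MPS replicates 1, 2 and 3, and TPS members 7.61%, 3.31% and 2.09% of those of TPS replicates 1, 2 and 3. Between the libraries that listed a member, the highest value was more than 2 times the lowest for 147 of the 319 MPS members and for 19 of the 31 TPS members.

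Of the circRNAs listed in all 3 MPS libraries and in no TPS library, scaffold7:2328081-2328970 had the highest mean. It was at 592, 137 and 278 in MPS replicates 1, 2 and 3. The second, scaffold13:3497301-3498287, was at 344, 294 and 258, a mean of 299 ± 43.2 (SD, n = 3). The third, scaffold14:2019005-2020131, was at 420, 39 and 357, so that its value in MPS replicate 2 was the smallest that this library lists. Stable levels over the 3 libraries were thus the case for some members only.

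Next in order, scaffold27:618745-619712 was at 306, 235 and 238, a mean of 260 ± 40.2. For scaffold68:19731-20827 the values were 248, 353 and 139, and for scaffold24:109942-110887 they were 306, 137 and 278. Among the first 6 in this order, the highest value was at most 1.33 times the lowest for scaffold13:3497301-3498287 and scaffold27:618745-619712 and at least 2.23 times the lowest for the others. The circRNA scaffold1:1651705-1652476 was at 382, 216 and 99, and scaffold777:22008-22923 at 363, 118 and 198. The circRNA scaffold11:2168138-2169190 varied less, at 248, 176 and 238. The remaining 3 of the first 12 were scaffold1:2974233-2974487 at 268, 333 and 60, scaffold4:2794969-2795547 at 153, 176 and 318, and scaffold110:48151-61235 at 96, 255 and 198. With a span of 13085 bases, the last of these was far longer than the other 11, which spanned 255 to 1127 bases.

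Some MPS members were higher but were not listed in 1 MPS library. The highest value of any MPS member was that of scaffold16:700639-701475, which was at 3402 in MPS replicate 1, at 372 in MPS replicate 2 and at 0 in MPS replicate 3. The difference between the MPS replicates was thus larger here than any value of the other MPS members. On scaffold41, a pair of circRNAs that shared their start at 1051261 had similar values. The shorter, which ended at 1051640, was at 0, 568 and 595 in MPS replicates 1, 2 and 3, and the longer, which ended at 1051835, was at 0, 451 and 556. Both were at 0 in MPS replicate 1, as were the next 3 in order. Of these, scaffold42:575382-577290 was at 216 and 556 in MPS replicates 2 and 3, scaffold128:291760-298584 at 333 and 417, and scaffold244:124235-124603 at 705 and 40.

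**Figure D3:**
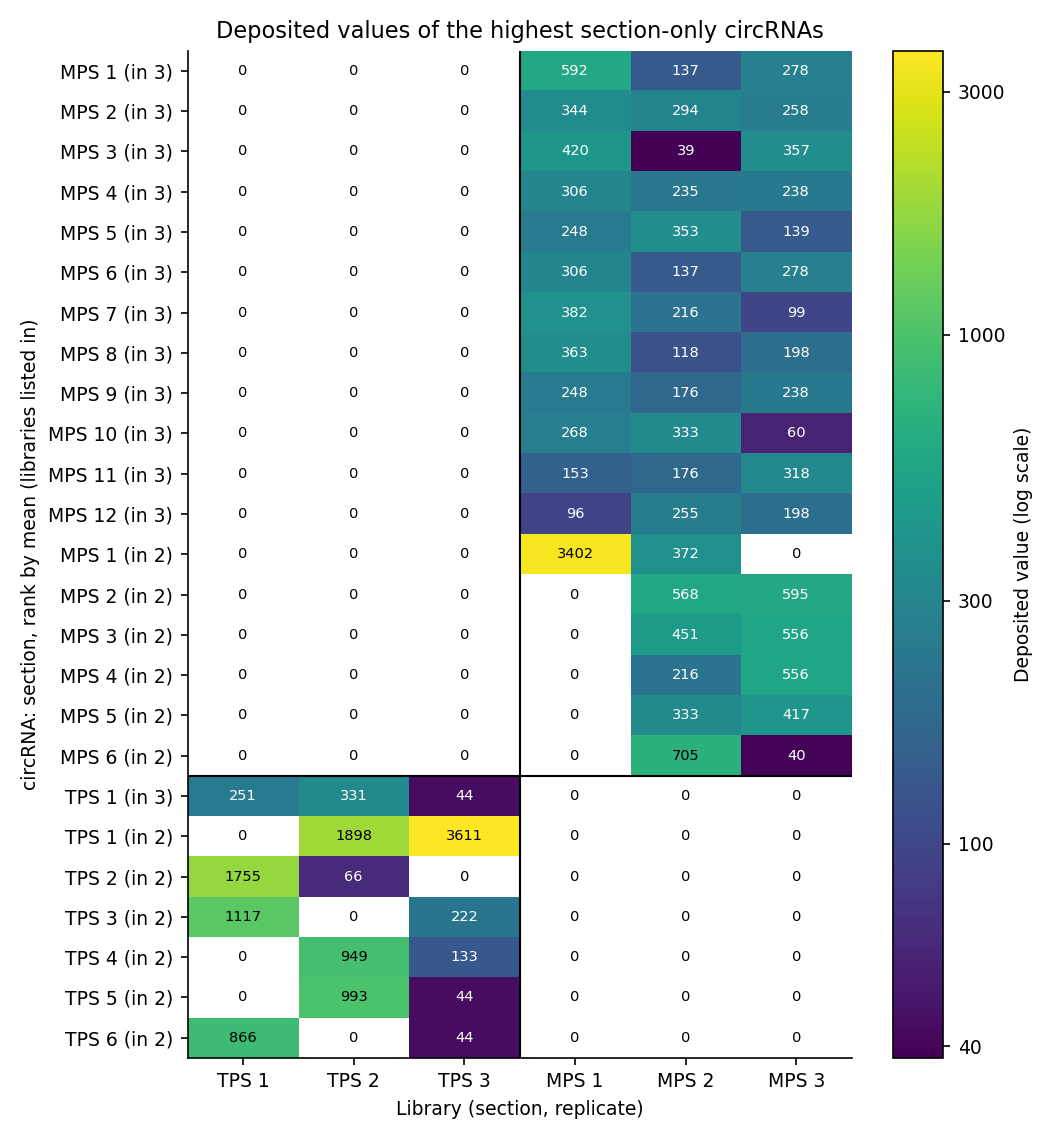
Deposited values of the circRNAs that the text names by mean value, with 1 row per circRNA, 1 column per library and the value in each cell (color on a log scale, white for 0). Rows are ordered by mean over the section, first the 12 MPS members of 3 libraries, then 6 of 2 libraries, then the 1 TPS member of 3 libraries and 6 of 2 libraries. The MPS members of 3 libraries lie between 39 and 592, and single TPS members reach 3611.

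In TPS, scaffold2:6347151-6348009 was the one circRNA listed in all 3 TPS libraries and in no MPS library. It was at 251, 331 and 44 in TPS replicates 1, 2 and 3, and 44 is the smallest value that TPS replicate 3 lists. By mean value the first TPS member was scaffold25:549184-568449, at 0, 1898 and 3611. It spanned 19266 bases. Its value in TPS replicate 3 was the highest of any member of either section.

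For the next 5 TPS members by mean, most of the value lay in 1 of the 2 libraries that listed them. The circRNA scaffold36:1462953-1463519 was at 1755, 66 and 0 in TPS replicates 1, 2 and 3, and scaffold244:79483-79807 at 1117, 0 and 222. In TPS replicate 2, scaffold52:153143-153756 reached 949 and scaffold9:4272598-4272859 reached 993, while TPS replicate 3 listed them at 133 and 44. The circRNA scaffold96:182352-187729 was at 866, 0 and 44. For these 5 circRNAs the highest value was 5.03 to 26.6 times the lowest listed value. The median over all listed values was itself 729 in TPS replicate 1 and 199 in TPS replicate 2, against 59 to 79 in the other 4 libraries, and the part of this in the members' values was not tested. Across the remaining 24 TPS members, values ran from 44 to 706.

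At the edge of the rule, 235 circRNAs were listed in 2 or 3 MPS libraries and in 1 TPS library, which was TPS replicate 3 for 198 of them, TPS replicate 2 for 35 and TPS replicate 1 for 2. In 42 of the 235, the value in TPS was the smallest that the library lists. One of these just outside the rule was scaffold22:2902269-2903224, at 516, 647 and 873 in MPS and at 0, 0 and 44 in TPS. Its mean in MPS of 679 was above that of every MPS member listed in all 3 libraries. Similarly, scaffold8:2674752-2676656 was at 134, 1039 and 298 in MPS and at 44 in TPS replicate 3. On the other side, 27 circRNAs were listed in 2 or 3 TPS libraries and in 1 MPS library. The one of them listed in all 3 TPS libraries, scaffold20:580230-580546, was at 684, 221 and 199 in TPS and at 258 in MPS replicate 3.

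The spans of the 2 groups of members differed in their long tail. MPS members spanned 189 to 14980 bases with a median of 710, with quartiles of 482 and 1106 bases. TPS members spanned 154 to 68962 bases with a median of 883, with quartiles of 499 and 6842 bases. Spans over 5000 bases were found in 10 of 319 MPS members (3.13%) and in 10 of 31 TPS members (32.3%), beside 9.59% of the circRNAs listed in both sections, 2.75% of those of 1 MPS library and 7.78% of those of 1 TPS library. The longest TPS members were scaffold14:1817097-1886058 (68962 bases), at 177 and 89 in TPS replicates 2 and 3, and scaffold319:60881-104093 (43213 bases), at 66 and 199. The longest MPS member was scaffold19:1034720-1049699 (14980 bases), at 76, 78 and 40. These 3 and the 5000-base limit were chosen after the values were seen.

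**Figure D4:**
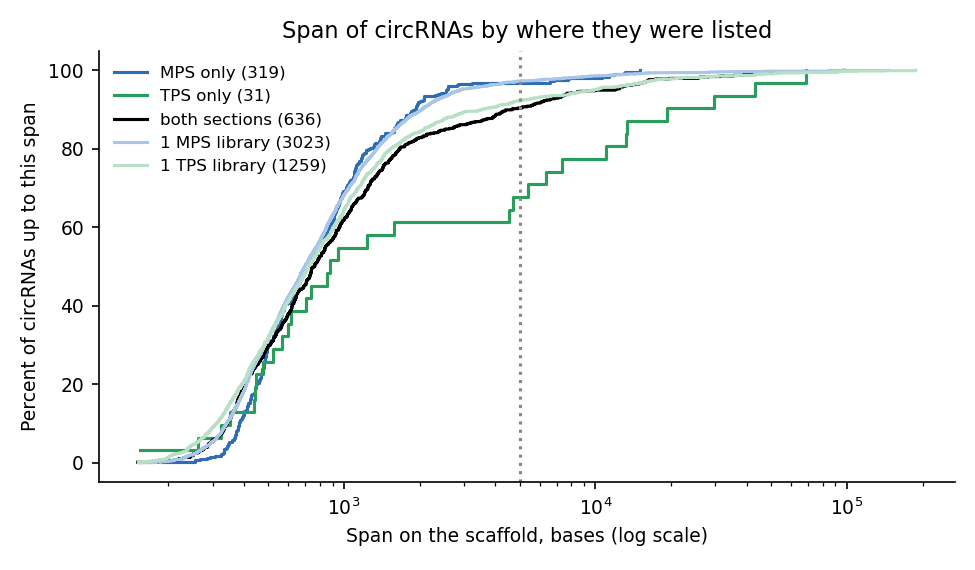
Cumulative percent of circRNAs (y axis) by span on the scaffold in bases (x axis, log scale), for the circRNAs listed in MPS only (blue), in TPS only (green), in both sections (black) and in 1 library (pale colors), with the number of circRNAs in brackets and a dotted line at 5000 bases. The curve of TPS members lies below the others at long spans, with 32.3% of them over 5000 bases against 3.13% of MPS members.

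Because span took no part in the rule, it was compared over the libraries with the members left out. Of the other circRNAs, 19.2% (10 of 52, 95% Wilson interval 10.8 to 31.9%), 8.29% (43 of 519, 6.21 to 11.0%) and 9.12% (133 of 1459, 7.74 to 10.7%) spanned over 5000 bases in TPS replicates 1, 2 and 3. In MPS replicates 1, 2 and 3 it was 7.90% (75 of 949, 6.35 to 9.79%), 4.30% (68 of 1583, 3.40 to 5.41%) and 3.14% (50 of 1592, 2.39 to 4.12%). Every TPS library was above every MPS library, but TPS replicate 2 and MPS replicate 1 differed by less than their intervals, which cover counting error only. The difference of 7.10 percentage points (12.2 ± 6.09% in TPS, 5.11 ± 2.48% in MPS, SD, n = 3) had p = 0.1 in the two-sided exact permutation test, the lowest that can be reached with 3 against 3, and an adjusted p of 0.2. The adjustment also counted a measure that derives from the values used by the rule, and without it the adjusted p would be higher. The difference was 3.59 percentage points without the sparse TPS replicate 1.

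Many members had neighbors with which they shared an end. Of the MPS members, 148 of 319 (46.4%) shared their start or their end with another circRNA of the table, and for 78 of them (24.5%) such a circRNA was listed in TPS. Of the TPS members, 6 of 31 (19.4%) shared an end with another circRNA, and for 4 of them this was one listed in MPS. The percent sharing an end was 41.0% for the circRNAs listed in both sections and 29.7% over all. Alternative back-splicing, in which one splice site joins several others, can give such sets, and its part here was not tested. Within the MPS members, 40 circRNAs shared 17 ends among themselves, and no TPS member shared an end with another. The most were 4 members with the start 12591 on scaffold360 and 4 with the start 7485 on scaffold423. An overlap with any other circRNA was found for 56.7% of MPS members and 51.6% of TPS members, beside 51.0% over all circRNAs. Of all members, 118 MPS members (37.0%) and 12 TPS members (38.7%) overlapped a circRNA listed in the other section. For these, the listing in 1 section held for the junction and not for every circRNA that overlapped it. The overlap was taken by position alone, with no strand and no limit on span, so that it need not mean a shared locus.

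Members were spread over 93 scaffolds in MPS and 27 in TPS, but some short stretches held many. On 5 scaffolds (scaffold244, scaffold270, scaffold360, scaffold365 and scaffold423) 1037 of the 5268 circRNAs were found (19.7%), and with them 61 MPS members (19.1%) and 3 TPS members (9.68%). When circRNAs of up to 5000 bases were merged where they overlapped, they formed 3232 loci, of which 2523 held 1 circRNA. The densest, 4333 bases of scaffold423 from 4640 to 8972, held 115 circRNAs, among them 14 MPS members and no TPS member. It held 20 circRNAs of TPS replicate 3, 1 each of the other TPS libraries and 34 to 48 of the MPS libraries. The next in members, 2828 bases of scaffold360 from 14907 to 17734, held 60 circRNAs with 8 MPS members. What the 5 scaffolds encode is not given in the table. Without them, 258 MPS members and 28 TPS members were left.

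Of the 309 MPS members of up to 5000 bases, 137 (44.3%) were the only circRNA at their locus, and 194 (62.8%) lay at loci with no circRNA listed in TPS. Of the 21 such TPS members, 13 (61.9%) were alone at their locus and 15 (71.4%) lay at loci with no circRNA listed in MPS. Over all 5006 circRNAs of up to 5000 bases, 50.4% were alone at their locus. Of the circRNAs listed in 1 MPS library alone, 67.0% lay at loci with no circRNA listed in TPS, and of those listed in 1 TPS library alone, 60.9% lay at loci with no circRNA listed in MPS. The percent alone was thus lower for MPS members and higher for the few TPS members than over all circRNAs, and these shares were not tested. One locus held members of both sections, on scaffold244 from 78347 to 79823, with 3 MPS members, 1 TPS member and 8 circRNAs listed in both sections among its 31.

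In this locus, a stretch of 364 bases held 10 circRNAs made from 5 starts and 6 ends. The most abundant, scaffold244:79472-79799, was at 3076, 1479 and 886 in TPS and at 153, 1254 and 1330 in MPS, and was thus listed in all 6 libraries. The TPS member scaffold244:79483-79807, at 1117, 0 and 222 in TPS, lay between 2 MPS members. One of them, scaffold244:79460-79807, shared its end and was at 0, 59 and 119 in MPS. The other, scaffold244:79500-79823, had both ends shifted by less than 20 bases against the TPS member and was at 57, 39 and 258 in MPS. Summed over the stretch, the values were 7680, 3906 and 3057 in TPS and 535, 2998 and 4703 in MPS, so that the summed values overlapped. Of the 10 circRNAs, 6 were listed in both sections, 2 were MPS members, 1 was a TPS member and 1 was listed in 1 library.

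**Figure D5:**
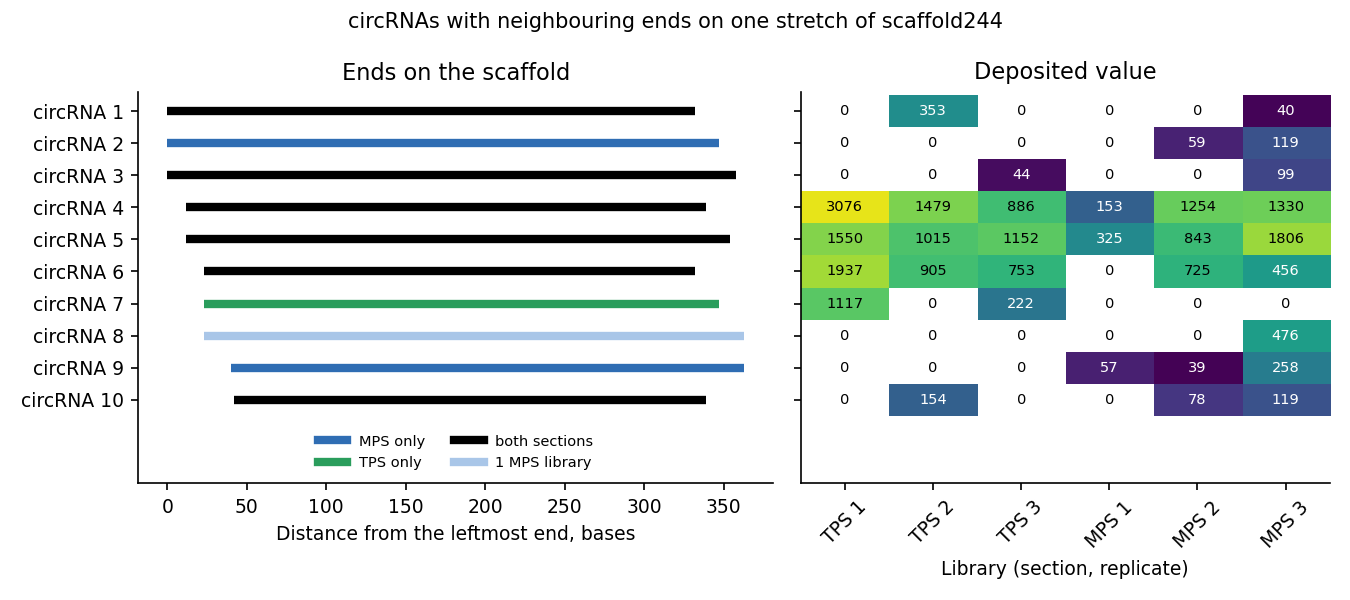
The 10 circRNAs with neighboring ends on a stretch of scaffold244, drawn to scale by their distance in bases from the leftmost end (left, 1 line per circRNA, colored by where it was listed) with their deposited values in the 6 libraries (right, color on a log scale, white for 0). The TPS member (green, circRNA 7, at 1117 and 222) lies among circRNAs of similar ends that were listed in both sections (black), such as circRNA 4 at 153 to 3076.

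Over all members, 13 MPS members and 2 TPS members had a circRNA listed in the other section with both ends within 20 bases. All of these but 1 lay on the 5 scaffolds with dense circRNAs. The exception, scaffold11:2168139-2169089, was at 0, 98 and 119 in MPS and had a neighbor listed in TPS that ended at the same position. When such members were left out, a setting added after the data were seen, 306 MPS members and 29 TPS members remained. With neighbors of either section counted, 10.3% of MPS members and 6.45% of TPS members had a circRNA with both ends within 20 bases. Over all circRNAs this share was 4.61%.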

How the data were processed

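Per the labels, total RNA of 6 bark samples, 3 TPS and 3 MPS, was used for the circRNA libraries. The circRNA signal values were deposited by the authors as whole numbers per circRNA and library. The study's methods cover the transcriptome and small RNA data. For the circRNAs, the library type, caller, scaling and assembly version are not given in these sources, and the submitters' processing notes name HISAT, StringTie and Cufflinks without a role. The step of each library was the one of which most values were whole multiples within 0.51, which held for at least 99.8% of them. Since the smallest values were at 2 or 4 steps, the values were not treated as counts and no fold change was taken against values of 0. For the marker genes, the authors aligned reads with Bowtie2, counted them with RSEM and deposited FPKM values.

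Columns were matched with samples by their titles. Members were found by the rule in the report. The code of the rule was checked on simulated rows built to meet or break it, which says nothing of how the rule behaves on these libraries. Positions are printed as deposited, and whether starts count from 0 or 1 is not stated. Spans were end minus start plus 1. Exact permutation tests (two-sided) compared 4 measures per library, with Benjamini-Hochberg adjustment over them. The test of 1 of the 4, the share of circRNAs in no other library, is not reported because it derives from the values used by the rule. It was counted in the adjustment, which lowered the adjusted p-values given for list length and spans. List length and summed values also derive from these values, and their tests only describe the libraries. The software was scipy 1.17.1, numpy 2.4.6, pandas 2.3.3 and matplotlib 3.10.9 in Python 3.11.15. The p-values measure the spread between these samples. Named circRNAs were, per section, up to 12 listed in 3 libraries and up to 6 listed in 2 libraries by mean value. Any other circRNA was named with its values known. Members and lists were chosen with earlier results of these data known. Count models of host genes were foreseen, but the circRNA table names no host, so that none was fitted. The transcriptome-wide test of sections was left out because, without host genes, it bears on no member, and FPKM values entered no test. Small RNA libraries were not used here.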

Additional observations from a re-analysis of the deposited data

How the results depend on the processing

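Members had to be listed in at least 2 of 3 libraries. With 3 of 3 required, 54 MPS members and 1 TPS member were left, and with 1 of 3 there were 3342 and 1290. With a common floor of 91 there were 137 and 15, and with values of at least 2 times the smallest of the library 160 and 22. Leaving out 1 library gave 104 to 517 MPS members and 2 to 49 TPS members. In all of these settings the MPS members were more numerous, which is a description, since every count comes from the listing that chose the members. The alternatives added after the data were seen (no circRNA of the other section within 20 bases, without the 5 dense scaffolds, spans of at most 5000 bases) gave 258 to 309 MPS members and 21 to 29 TPS members. The difference in spans over 5000 bases was positive in every setting tried, 5.27 percentage points at a limit of 2000 bases (exact permutation test, p = 0.3), 5.83 at 10000 bases and 8.08 with the members included, and 3.59 to 9.06 without 1 library. With the replicate number as a block it was 7.10 (exact permutation test within numbers, p = 0.25, the smallest that 3 pairs allow). No paired analysis was possible for the members because they come from a rule and not from a test. The settings foreseen for host genes were not run, since the table names no host, and those for the transcriptome-wide test were left out with that test. A value of 0 says that a circRNA was not listed in that library, and not that it is absent.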
